A study of Caenorhabditis elegans with 12 samples.

Results

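The muscle attachment and dense body genes code for the chain of proteins that carries the pull of the body wall muscle of Caenorhabditis elegans from the contractile lattice through the cell membrane to the basement membrane. The 10 genes were chosen by name as this load path (unc-52, pat-2, pat-3, pat-4, pat-6, unc-112, unc-97, unc-95, deb-1 and atn-1), and all 10 were found among the 20018 genes measured. They were read by 17 of the 23187 transcript features on the array, a feature being a set of probes for 1 named transcript. For 7 of the genes there was 1 feature, and unc-52, deb-1 and atn-1 had several. A gene's value was the mean log2 intensity of its features.

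In this worm, the dense body is the structure that anchors actin filaments to the muscle membrane, much as a focal adhesion does in vertebrate cells, and the M-line anchors the myosin filaments. Outside the cell, UNC-52, the worm's perlecan, lies in the basement membrane under the muscle. In the membrane, PAT-2 and PAT-3 form an integrin, the receptor that binds the matrix, and PAT-3 is also used by tissues other than muscle. On the inner side, UNC-112 (kindlin), PAT-4 (integrin-linked kinase), PAT-6 (parvin) and UNC-97 (PINCH) bind to the integrin as a complex. UNC-95 is a LIM-domain protein of the same attachments, and DEB-1 (vinculin) and ATN-1 (alpha-actinin) sit in the dense body where actin is anchored.

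The study asked how microgravity and space radiation act together in worms carried on the Shenzhou-8 mission. Total RNA of whole worms was measured on 12 one-colour NimbleGen arrays, 1 for each of 3 strains under 4 conditions, and this small number of arrays sets the precision. The strains were LS292, with dys-1(cx18), whose gene codes for dystrophin, MT4930, with ced-1(n1995), whose gene codes for a receptor in the engulfment of dying cells, and the wild type N2. Dauer larvae, a resting stage, were loaded into the BIOBOX hardware and kept for 16.5 days at 23 °C. In static flight they were in microgravity with a radiation dose of 1.92 mGy, and in the on-board centrifuge they were at 1 g with 2.27 mGy. The ground control stayed in a static slot of the same kind of hardware and was run 2 days later. In these 3 conditions, whose worms are called carried, worms were collected 7 h after landing or after the end of the run. The untransported worms of the fourth group stayed in an incubator in Dalian, and their duration, temperature, container and collection are not stated. Transport, hardware and these other differences therefore cannot be told apart.

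The labels state that techniques were repeated but samples were not, so within a condition strain and array cannot be told apart, and p-values measure only the spread between these 12 arrays. RNA came from whole worms, so a changed share of muscle or other tissues and a changed amount of RNA per cell cannot be told apart. Mean intensity per array ran between 902 and 1160, with the lowest on the ced-1 ground control array. For the mutated genes, dys-1 had a log2 intensity of 7.76 ± 0.65 in the dys-1 mutant (SD, n = 4) and 7.52 ± 0.29 in the other strains (n = 8), and ced-1 had 9.91 ± 0.30 in the ced-1 mutant and 10.25 ± 0.29 in the others. Whether these alleles lower their own transcripts is not stated. Body wall muscle was represented on every array: the mean log2 intensity over 8 of its marker genes (7 of the contractile lattice, and hlh-1, a transcription factor) was 11.72 ± 0.27 in static flight, 11.66 ± 0.23 in the centrifuge, 11.45 ± 0.22 in the ground control and 11.49 ± 0.13 in untransported worms (SD, n = 3 each).

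Between carried and untransported worms, the perlecan gene unc-52 was the 1 member of 10 that passed the test (an adjusted p under 0.05), where 6.47% of all genes were called higher and 6% lower. It rose 1.55-fold, by 0.63 ± 0.19 log2 units (SE, 3 arrays per condition, limma adjusted p = 0.0489, higher in 3 of 3 strains). The LIM-domain gene unc-95 differed by 0.67 ± 0.21 and missed the threshold at an adjusted p of 0.0514, also with the same sign in 3 of 3 strains. The kinase gene pat-4 differed by 0.47 ± 0.19 (adjusted p = 0.126). No member passed in static flight against the ground control (0.19% of all genes called higher and 0.02% lower), in static flight against the centrifuge (0.005% and 0%), or in either mutant against the wild type (0% in each direction).

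**Figure D1:**
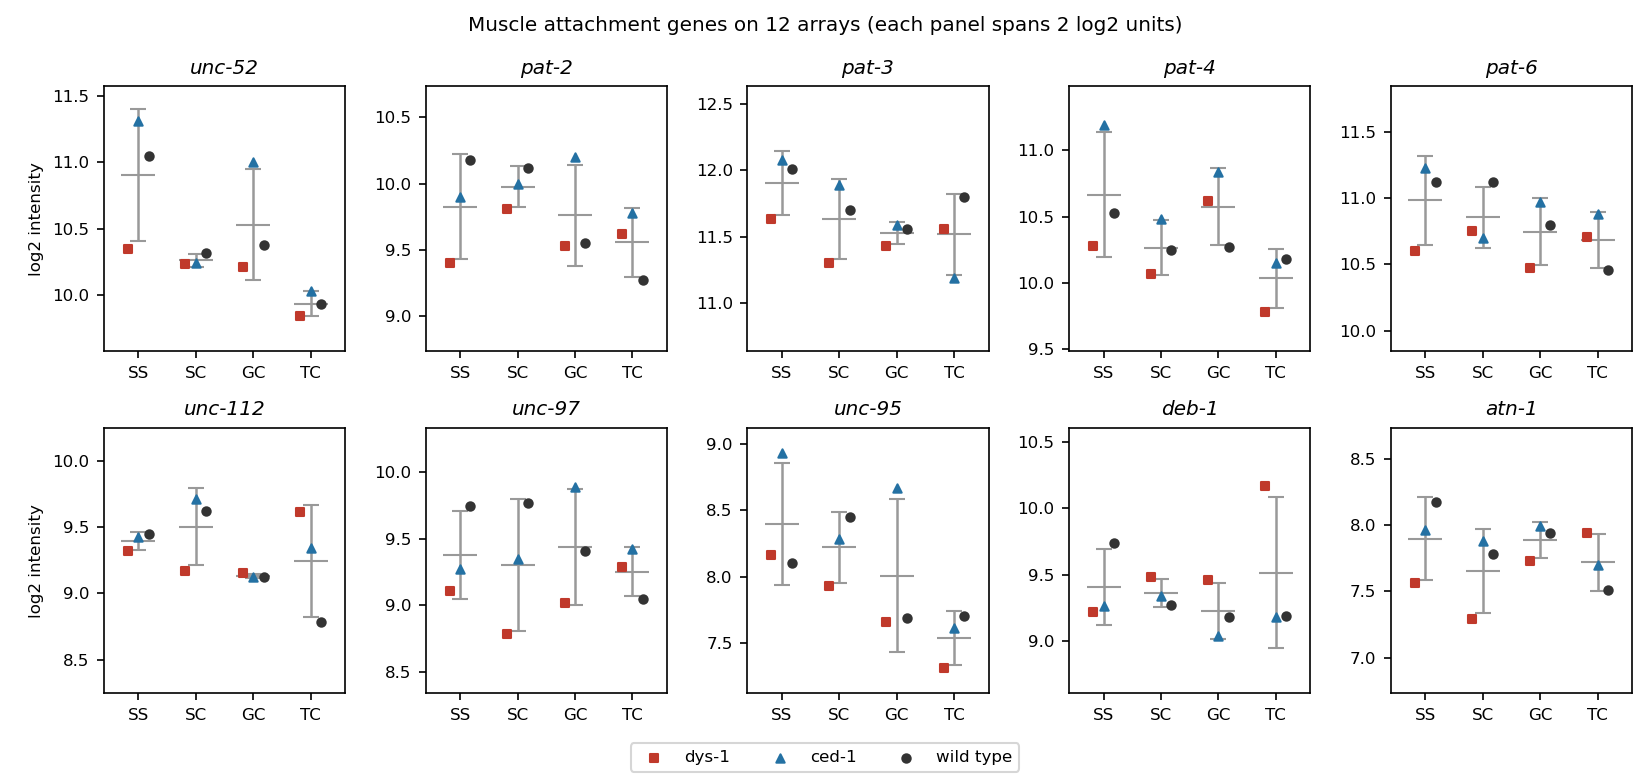
Log2 intensity of the 10 attachment genes (vertical axis) on 12 arrays, by condition (SS, static flight; SC, centrifuged flight; GC, ground control; TC, untransported worms), with squares for dys-1, triangles for ced-1 and circles for the wild type; grey bars are the mean ± SD of 3 arrays. For unc-52 all 9 carried arrays lie above the 3 untransported arrays, while deb-1 is highest on the dys-1 untransported array, at 10.17.

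The matrix gene unc-52 had log2 intensities of 10.35 in dys-1, 11.31 in ced-1 and 11.05 in the wild type in static flight. In the centrifuge the values were 10.23, 10.24 and 10.32, and in the ground control 10.21, 11.001 and 10.38, in the same order of strains. Untransported worms had 9.84 in dys-1, 10.03 in ced-1 and 9.93 in the wild type. The 9 carried arrays and the 3 untransported arrays did not overlap, the lowest carried value being that of the dys-1 ground control. Static flight in ced-1 and the wild type and the ground control in ced-1 were the high arrays, and dys-1 stayed within a narrow range in the carried conditions. Of all genes, 4.69% were higher in carried worms with no overlap between arrays, and 12.4% were higher and 14.1% lower with an unadjusted p under 0.05. At that unadjusted level 3 of 10 members were higher (unc-52, unc-95 and pat-4) and 0 lower. The 1 call among 10 members is near the background of 6.47%.

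In the ground control alone, unc-52 differed from untransported worms by 0.59 ± 0.24 (unadjusted p = 0.0260, adjusted p = 0.181). The arrays of these conditions did not overlap, as for 8.98% of all genes higher in the ground control. Static flight lay above the centrifuge by 0.64 ± 0.24 (unadjusted p = 0.0180, adjusted p = 0.296), with differences of 0.13 in dys-1, 1.07 in ced-1 and 0.73 in the wild type. Those arrays did not overlap either, as for 8.54% of all genes, and an unadjusted p under 0.05 was reached by 7.94% of all genes in that direction and by 4.02% in the other. The difference of 0.37 ± 0.24 between static flight and the ground control did not pass (adjusted p = 0.596), and the centrifuge lay 0.27 below the ground control (difference −0.27 ± 0.24, adjusted p = 0.885). These comparisons share arrays, so their values are not independent of each other. Over the 12 arrays, condition accounted for 63.8% of the variance of unc-52 and strain for 20.2%, against medians of 33.5% and 18.1% over all genes.

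The rise of unc-52 did not stand in every fit. With strain left out of the fit, its adjusted p was 0.0959. The adjusted p for carried against untransported worms lay between 0.0327 and 0.282 when arrays were left out 1 at a time, and the call was lost in 9 of 12 such fits, at differences of 0.54 to 0.73. It was kept without the dys-1 static flight array, without the ced-1 centrifuge array and without the wild-type ground control array.

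The gene's value averages 5 transcript features. They bear the transcript names ZC101.2a, 2b, 2c, 2e and 2f, and the unc-52 transcript is known to be spliced in several ways. The deposited files do not say which exons or forms each feature reads. A fit of every feature, added after the data were seen, was made over all 23187 features. In it, 5.9% of features were called higher in carried worms and 6.18% lower.

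Of the 5 unc-52 features, 4 rose in carried worms. ZC101.2a rose by 0.79 ± 0.21 (limma adjusted p = 0.0244), ZC101.2b by 0.89 ± 0.19 (adjusted p = 0.00691), ZC101.2c by 0.87 ± 0.20 (adjusted p = 0.0111) and ZC101.2f by 0.93 ± 0.20 (adjusted p = 0.00719). The remaining feature, ZC101.2e, had a difference of −0.33 ± 0.23 (adjusted p = 0.408). On each of the 4 rising features, no carried array reached down to the untransported arrays, as for 4.34% of all features. Whether the features share probes is not stated in the files used here, so the 4 may not be separate measurements. The calls for ZC101.2b, ZC101.2c and ZC101.2f were lost in 1 of 12 fits with 1 array left out, the one without the ced-1 untransported array (adjusted p = 0.0775, 0.0906 and 0.0901). The call for ZC101.2a was lost in 3 such fits, each without 1 untransported array (adjusted p = 0.0645, 0.0751 and 0.183). None of the 4 was lost when strain was left out of the fit, where the adjusted p was 0.0475 for ZC101.2a.

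ZC101.2b, the one with the smallest p, had log2 intensities of 9.65 in dys-1, 10.40 in ced-1 and 10.37 in the wild type in static flight and 9.64, 9.84 and 9.67 in the centrifuge. The ground control gave 9.73, 10.59 and 10.03 in that order of strains, and untransported worms gave 9.01, 9.23 and 9.05. The lowest carried array thus lay above every untransported array by more than the range among the untransported arrays. Already in the ground control, ZC101.2b was higher than in untransported worms by 1.02 ± 0.23 (adjusted p = 0.0201, where 2.8% of features were called higher and 2.32% lower), and ZC101.2a differed by 0.91 there. Both are over 1.5 times the 0.59 of the averaged gene.

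ZC101.2e, the feature that did not rise, had in static flight 8.84 in dys-1, 9.87 in ced-1 and 9.79 in the wild type, and in the centrifuge 8.84, 8.71 and 8.83. The ground control gave 8.66, 9.28 and 8.47 in the same order, and untransported worms gave 9.48, 9.32 and 9.27. Carried and untransported arrays overlapped here, and the centrifuge and ground control arrays lay below or near the lowest untransported one.

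Set against the mean of the other 4 features on the same array, ZC101.2e lay at −1.89 in dys-1, −1.80 in ced-1 and −1.57 in the wild type in static flight. In the centrifuge it lay at −1.73, −1.92 and −1.86, and in the ground control at −1.94, −2.16 and −2.39. In untransported worms it lay at −0.45, −0.89 and −0.83. Every carried array was thus lower than every untransported array in this ratio within the gene. The same held for 1.08% of 5442 features of genes with more than 1 feature. Whether the signal of an array or the brightness of a feature affects the ratio was not tested. The carried value differed by −1.20 ± 0.16 on the log2 scale (unadjusted p = 1.58e-05), which ranked 1 of those 5442 features by p, and between 1 and 9 with 1 array left out. Its adjusted p was 0.0524, so it missed the threshold, as did all 5442 features (0% called), and it lay between 0.0341 and 0.227 with 1 array left out. In genes with 2 features both carry the same p, so the 5442 values are not all independent. The ground control alone differed by −1.44 ± 0.19 from untransported worms (adjusted p = 0.100).

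**Figure D2:**
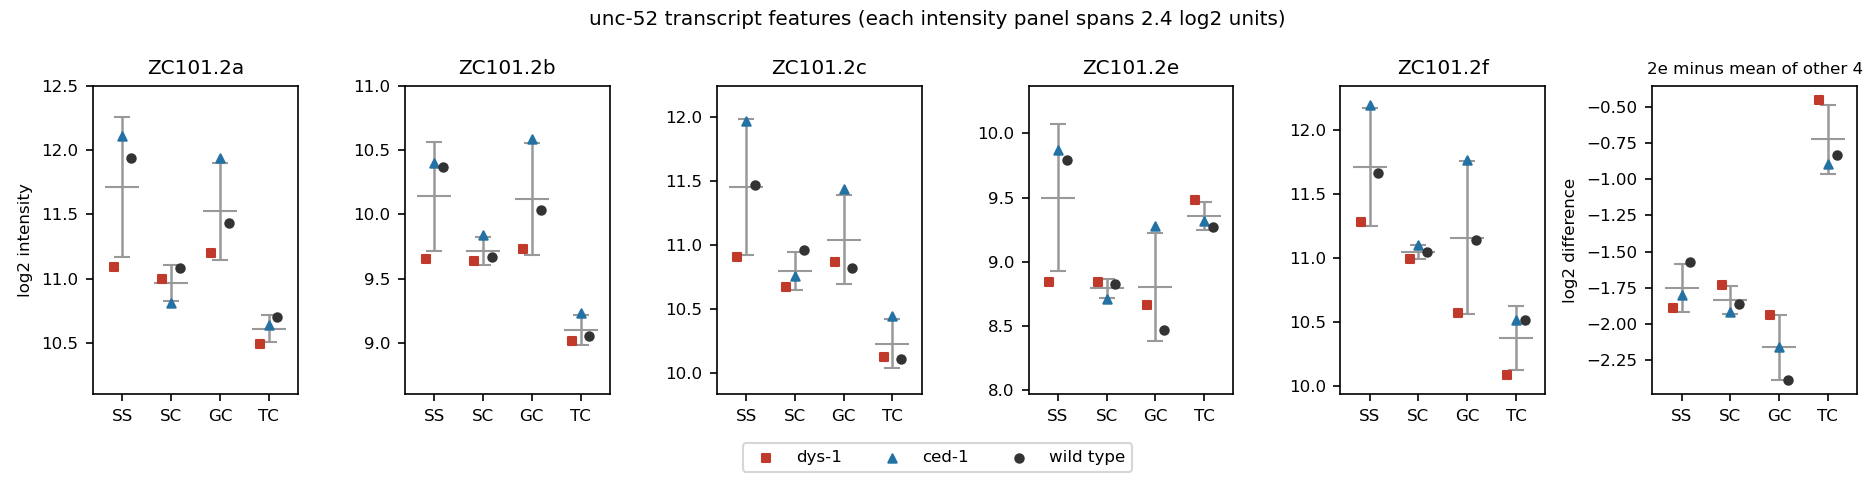
Log2 intensity of the 5 unc-52 transcript features (first 5 panels) and the log2 difference of ZC101.2e from the mean of the other 4 features (last panel) on 12 arrays, by condition (SS, static flight; SC, centrifuged flight; GC, ground control; TC, untransported worms), with squares for dys-1, triangles for ced-1, circles for the wild type and grey bars for the mean ± SD of 3 arrays. In the last panel the 3 untransported arrays lie between −0.89 and −0.45 and the 9 carried arrays between −2.39 and −1.57.

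The integrin subunit genes did not pass in any comparison. pat-2 had 9.40 in dys-1, 9.90 in ced-1 and 10.18 in the wild type in static flight, 9.81, 10.00 and 10.12 in the centrifuge, 9.53, 10.20 and 9.55 in the ground control, and 9.62, 9.78 and 9.27 in untransported worms. The centrifuge arrays of pat-2 all lay just above its untransported arrays, the lowest at 9.81 and the highest at 9.78. That pair of conditions was not compared by itself, and the share of all genes with such a gap was not counted. Its other pairs of conditions overlapped, and the carried difference was 0.30 ± 0.20 (adjusted p = 0.398). pat-3 had 11.63 in dys-1, 12.08 in ced-1 and 12.01 in the wild type in static flight, 11.30, 11.89 and 11.70 in the centrifuge, 11.43, 11.59 and 11.56 in the ground control, and 11.56, 11.19 and 11.80 in untransported worms. For pat-3 the lowest static flight array, that of dys-1, lay just above the highest ground control array, that of ced-1. The difference between static flight and the ground control was 0.38 ± 0.23 (adjusted p = 0.571), and 10.2% of all genes were higher in static flight with no overlap. The subunits of this receptor thus differed in where their highest arrays lay, pat-3 in static flight and pat-2 across the flown conditions and the ced-1 ground control.

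Among the genes of the cytoplasmic complex, the kinase gene pat-4 had the largest difference between carried and untransported worms. Its log2 intensity was 10.28 in dys-1, 11.19 in ced-1 and 10.53 in the wild type in static flight, 10.07, 10.48 and 10.25 in the centrifuge, 10.62, 10.84 and 10.27 in the ground control, and 9.78, 10.15 and 10.18 in untransported worms. The ground control arrays lay above the untransported ones with no overlap, as for 8.98% of all genes, at a difference of 0.54 ± 0.23 (unadjusted p = 0.0346, adjusted p = 0.211). In that comparison 3.09% of all genes were called higher and 2.25% lower, and 0 of 10 members were called by limma, with 2 of 10 at an unadjusted p under 0.05 and higher, against 8.34% of all genes higher and 11.1% lower.

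The other 3 genes of the complex did not pass, and their conditions overlapped between carried and untransported worms. pat-6 ran from 10.47 to 11.23 over the 12 arrays, unc-112 from 8.78 to 9.71 and unc-97 from 8.78 to 9.89. pat-6 (parvin) differed by 0.18 ± 0.19, unc-112 (kindlin) by 0.10 ± 0.20 and unc-97 (PINCH) by 0.12 ± 0.22, with adjusted p-values between 0.612 and 0.819. Within conditions, unc-112 was even in static flight and the ground control, with 9.32 to 9.45 in static flight and 9.12 to 9.15 in the ground control. Static flight thus lay above the ground control without overlap, as for 10.2% of all genes. In untransported worms unc-112 spread over 9.61 in dys-1, 9.34 in ced-1 and 8.78 in the wild type. The centrifuge, at 9.17, 9.71 and 9.62, also lay above the ground control without overlap, as for 6.2% of all genes. Neither difference passed, at 0.27 ± 0.25 for static flight (adjusted p = 0.746) and 0.37 ± 0.25 for the centrifuge (adjusted p = 0.866). For unc-97, strain accounted for 42.3% of the variance and condition for 4.89%.

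unc-95, the LIM-domain gene, had the widest range of the 10 genes over the arrays, 3.08-fold between its highest and lowest array, where the median over all genes was 2.41-fold. It had 8.16 in dys-1, 8.93 in ced-1 and 8.10 in the wild type in static flight, 7.93, 8.28 and 8.45 in the centrifuge, 7.66, 8.67 and 7.69 in the ground control, and 7.31, 7.61 and 7.70 in untransported worms. All 6 flown arrays lay above the untransported arrays, as for 6.96% of all genes, and the dys-1 and wild-type ground control arrays lay among the untransported ones. unc-95 was higher in the flown conditions than in the 2 unflown ones by 0.53 ± 0.18 (unadjusted p = 0.0106, adjusted p = 0.109), and the differences within strains were close to each other, at 0.56 in dys-1, 0.47 in ced-1 and 0.58 in the wild type. In that comparison 4.28% of all genes were called higher, 1.66% were called lower, and 0 of 10 members were called by limma, with unc-95 the one member at an unadjusted p under 0.05 (11.5% of all genes higher and 7.67% lower). No detection call was used, so a low intensity of unc-95 cannot be called absent.

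The actin-anchoring genes of the dense body did not pass in any comparison. deb-1 (vinculin) had 9.22 in dys-1, 9.26 in ced-1 and 9.74 in the wild type in static flight, 9.48, 9.34 and 9.27 in the centrifuge, 9.46, 9.04 and 9.18 in the ground control, and 10.17, 9.18 and 9.19 in untransported worms. The dys-1 untransported array stood 0.98 above the wild type of the same condition, and without it the carried difference of −0.18 ± 0.22 became 0.12. The correlation of deb-1 with the mean of the other 9 members over the 12 arrays was −0.09, the lowest of the 10, but 0.70 once condition and strain were fitted, where pat-4 was lowest at 0.09. atn-1 (alpha-actinin) had 7.56 in dys-1, 7.96 in ced-1 and 8.17 in the wild type in static flight, 7.29, 7.88 and 7.78 in the centrifuge, 7.73, 7.99 and 7.94 in the ground control, and 7.94, 7.70 and 7.51 in untransported worms. Its carried difference was 0.09 ± 0.19 (adjusted p = 0.823).

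The features of deb-1 and atn-1 gave unlike values across strains, with none past the threshold. They also differed in brightness, so each gene's value averages bright and dim features. In static flight the mean log2 intensity was 6.68 for W04D2.1a and 9.12 for W04D2.1b, both of atn-1. For deb-1 it was 10.61 for ZC477.9a, 7.18 for ZC477.9b and 10.41 for ZC477.9c. Between carried and untransported worms these deb-1 features differed by 0.09 ± 0.22, −0.50 ± 0.32 and −0.14 ± 0.21 in that order. The deb-1 feature ZC477.9b ran from 6.21 in ced-1 in static flight to 8.70 in dys-1 in untransported worms, and it was higher in dys-1 than in the wild type by 0.78 ± 0.34 (unadjusted p = 0.0366, adjusted p = 0.283). That unadjusted level was reached by 9.12% of features upward and 6.65% downward, and 0% were called. Against the other deb-1 features it was higher in dys-1 by 0.81 ± 0.36 (adjusted p = 0.590), while ZC477.9a differed by −0.54 ± 0.21 (adjusted p = 0.553). For atn-1, W04D2.1a was lower in dys-1 than in the wild type by −0.46 ± 0.20 (unadjusted p = 0.0357, adjusted p = 0.282) and W04D2.1b differed by 0.02.

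Static flight against the ground control, which sets the whole flight against the same hardware on the ground, gave small differences, mostly above 0. Of the 10 members, 9 lay above 0, with a median of 0.21 against 0.04 over all genes and a range of −0.06 to 0.39. limma called 0 of 10, and 0 of 10 reached an unadjusted p under 0.05. That level was reached by 8.33% of all genes in the higher direction and by 3.38% in the lower. Markers of several tissues lay above 0 in the same comparison. All 5 sperm markers were higher at an unadjusted p under 0.05, with a median of 0.68, and 6 of 6 germline markers lay above 0, with a median of 0.67. Of the body wall muscle markers 8 of 8 did, with a median of 0.17. In the other direction, 4 of 6 neuron markers lay below 0, with a median of −0.15. So did 3 of 5 intestine markers, with a median of −0.09 and 1 lower at an unadjusted p under 0.05. None of these markers was called, and their part in the differences of the attachment genes was not tested. With standard errors of 0.23 to 0.26, differences of this size could not be told from the spread between arrays. With the arrays made alike by quantile normalization, the median of the members was 0.07 and that of all genes −0.00. The centrifuge against the ground control gave a median of 0.11 against 0.05 over all genes, with 6 of 10 members above 0 and 0 called by limma (0.00999% of all genes called higher and 0.025% lower, and no member at an unadjusted p under 0.05, against 3.09% and 2.93%). Static flight against the centrifuge, which sets microgravity against 1 g within the flight, gave a median of 0.15 against 0.00, with 8 of 10 above 0 and 0 called. There, unc-52 was the one member at an unadjusted p under 0.05.

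**Figure D3:**
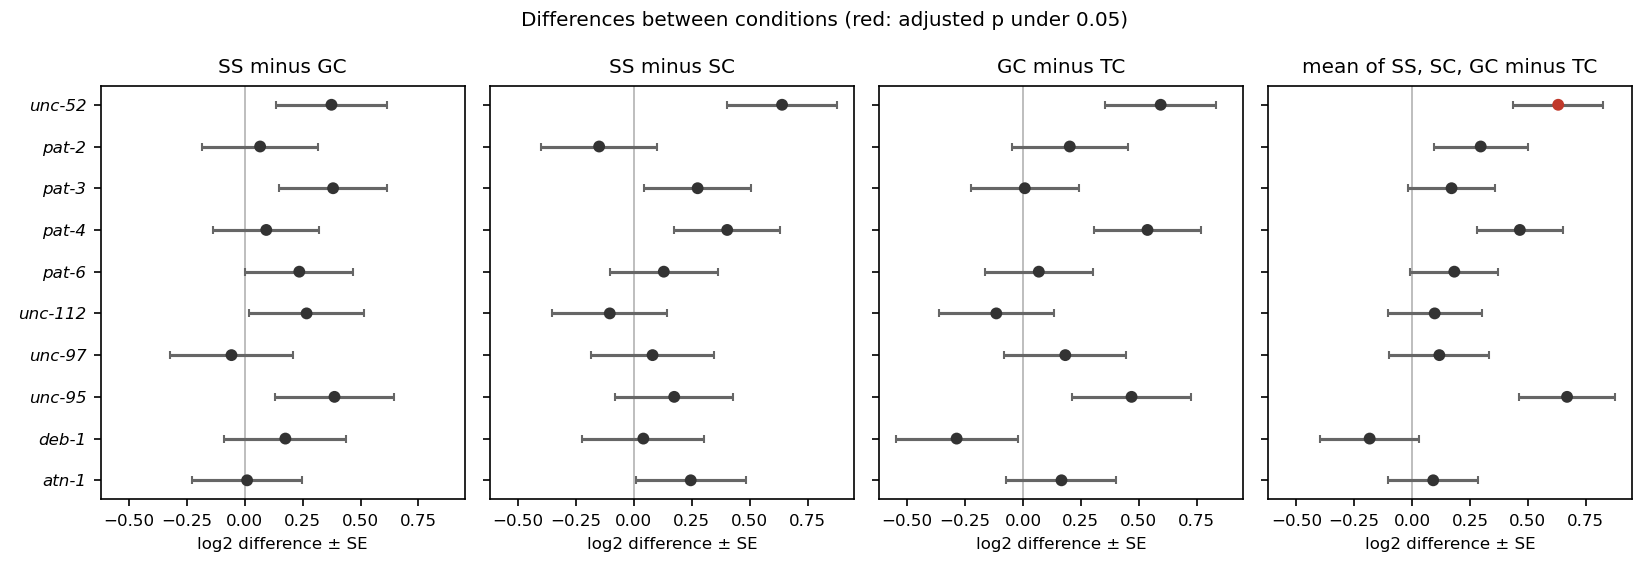
Log2 difference ± SE (horizontal axis) of the 10 attachment genes between static flight (SS) and the ground control (GC), static flight and the centrifuge (SC), the ground control and untransported worms (TC), and the mean of the 3 carried conditions and untransported worms; red marks an adjusted p under 0.05. unc-52 in the last panel, at 0.63 ± 0.19, is the one member that passed, and deb-1 lies below 0 in both comparisons with untransported worms.

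In carried against untransported worms, 9 of 10 members lay above 0, with a median of 0.18 against −0.00 over all genes. Within strains, 3 of 10 members were higher in dys-1, with a median of −0.10, 10 of 10 in ced-1, with a median of 0.24, and 9 of 10 in the wild type, with a median of 0.50. Over all genes the share above 0 was 50.6% in dys-1, 49.3% in ced-1 and 48.8% in the wild type. Any difference among the 4 conditions was called for 0 of 10 members by limma's F-test (8.23% of all genes), with unc-52 at an adjusted p of 0.0756 and unc-95 at 0.153. These 2 of 10 reached an unadjusted p under 0.05, at 0.00817 and 0.0264, as did 22.9% of all genes, so their share is near the background.

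Between strains no member passed. In dys-1 against the wild type 8 of 10 members lay below 0, with a median of −0.22 against −0.03 over all genes, and unc-97 had the smallest p, at −0.45 ± 0.23 (unadjusted p = 0.0716, adjusted p = 0.382). An unadjusted p under 0.05 was reached by 7.59% of all genes in the higher direction and 7.28% in the lower, and by 0 of 10 members. The median of the members for dys-1 against the wild type was −0.52 in static flight, −0.39 in the centrifuge, −0.08 in the ground control and 0.25 in untransported worms. Over all genes the medians lay between −0.03 and −0.01 in these conditions. In ced-1 against the wild type the median was 0.11 against −0.00, and the largest differences were 0.39 ± 0.22 for unc-95 and 0.36 ± 0.20 for pat-4 (both adjusted p = 0.908). That unadjusted level was reached by 2.78% of all genes upward, 2.51% downward and no member.

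Whether flight acted differently in the mutants was tested as an interaction of strain with flown against unflown conditions. None of the 10 members passed for dys-1 or ced-1, no gene of the 20018 did (0% called), and no member reached an unadjusted p under 0.05, where 4.32% of all genes did for dys-1 and 4.86% for ced-1. For dys-1 all 10 estimates lay below 0, from −0.78 for deb-1 to −0.02 for unc-95, with a median of −0.53 against 0.02 over all genes, of which 48.4% lay below 0. The 10 estimates share the same 8 arrays of dys-1 and the wild type. For ced-1, 8 of 10 estimates lay below 0, with a median of −0.21. Over all genes the ced-1 median was 0.03, and 47.4% lay below 0. Both sets of estimates use the same wild-type arrays. In the wild type all 10 members were higher in the flown pair, with a median of 0.51, and in dys-1 4 of 10 were, with a median of −0.03. In ced-1, 8 of 10 members were higher in the flown pair, with a median of 0.23. Markers of body wall muscle had the same direction. Their mean log2 intensity in dys-1 was 11.41 in static flight, 11.41 in the centrifuge, 11.64 in the ground control and 11.52 in untransported worms, against 11.85, 11.87, 11.21 and 11.35 in the wild type in the same order. Of these 8 markers 7 had an estimate below 0 for dys-1, with a median of −0.87 and 3 at an unadjusted p under 0.05. For ced-1 all 8 did, with a median of −0.24 and 1 at that level. All 5 sperm markers also lay below 0 for dys-1, with a median of −0.63. So did 16 of 17 basement membrane genes, with a median of −0.44. Some lists did not share this direction. Of 23 other dense body and M-line genes 12 lay below 0 for dys-1, with a median of −0.01. Only 1 of 6 germline markers (median 0.39) and 1 of 5 pharynx markers (median 0.27) lay below 0. The part of these markers in the estimates of the attachment genes was not tested.

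Proteins around the attachment chain were compared in the same fit. Of 17 basement membrane genes, the compartment that holds UNC-52, 2 rose in carried worms and 0 fell, where 6.47% of all genes were called higher and 6% lower, with 14 above 0 and a median of 0.15. An unadjusted p under 0.05 was reached by 5 upward and 1 downward, against 12.4% and 14.1% of all genes, the downward one being agr-1, agrin, at −0.61 ± 0.23 (adjusted p = 0.106). emb-9, a type IV collagen chain, rose by 1.01 ± 0.19 (adjusted p = 0.00340), and epi-1, a laminin alpha chain, by 0.82 ± 0.19 (adjusted p = 0.0125), each with the same sign in 3 of 3 strains. epi-1 was called already in the ground control, at 1.13 ± 0.24 against untransported worms (adjusted p = 0.0118), where emb-9 missed at 0.86 ± 0.24 (adjusted p = 0.0509). In the flown against the unflown pair, where 4.28% of all genes were called higher and 1.66% lower, emb-9 rose by 0.66 ± 0.17 (adjusted p = 0.0340) and agr-1 fell by 0.74 on the log2 scale (adjusted p = 0.0448).

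Of 23 other dense body and M-line genes, none passed in carried against untransported worms by limma, with an unadjusted p under 0.05 for 1 upward and 2 downward (12.4% and 14.1% of all genes) and a median of −0.07. alp-1, an ALP/Enigma family protein, differed by 0.56 ± 0.18 (adjusted p = 0.0596), and uig-1, an exchange factor for Cdc42, by −0.51 ± 0.18 (adjusted p = 0.0842). In the flown against the unflown pair 1 of the 23 passed, a share near the 4.28% of all genes called higher there. It was pfn-3, a profilin, which rose by 0.72 ± 0.18 (adjusted p = 0.0334). Of 8 measured genes of the fibrous organelles, which tie the hypodermis between muscle and cuticle, none passed by limma, with 2 higher at an unadjusted p under 0.05, a level that 12.4% of all genes reached in that direction. They were mup-4, a transmembrane protein of these attachments, at 0.55 ± 0.20 (adjusted p = 0.0858), and ifa-3, an intermediate filament protein, at 0.52 ± 0.21 (adjusted p = 0.130).

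Markers of tissues were also read between carried and untransported worms, where 6.47% of all genes were called higher and 6% lower. In lists this short, 1 call says little by itself. All 5 sperm markers were called higher, with a median difference of 2.18, and their mean log2 intensity was 10.37 to 11.44 in static flight, 9.81 to 10.47 in the centrifuge, 9.99 to 10.53 in the ground control and 8.22 to 8.53 in untransported worms. Of 6 neuron markers 3 were called lower, with a median of −0.56, and of 5 pharynx markers 1 was, with a median of −0.63. Neuron markers had mean log2 intensities of 8.78 to 9.19, 9.01 to 9.26 and 8.86 to 9.05 in the carried conditions in the same order, against 9.21 to 9.86 in untransported worms. Of 8 body wall muscle markers 1 was called higher, mup-2 (troponin T), by 0.78 (adjusted p = 0.0303), with 4 above 0 and a median of 0.05. One marker each was called higher of the 5 of the intestine, the 4 measured of the hypodermis and the 6 of the germline. All 6 germline markers lay above 0, with a median of 0.50. Their mean log2 intensity in untransported worms was 10.11 in dys-1, 9.96 in ced-1 and 11.74 in the wild type, and it was 10.85 to 11.76 on the carried arrays. That wild-type array also enters the comparisons of the mutants. The part of these differences in the rise of unc-52 was not tested.

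**Figure D4:**
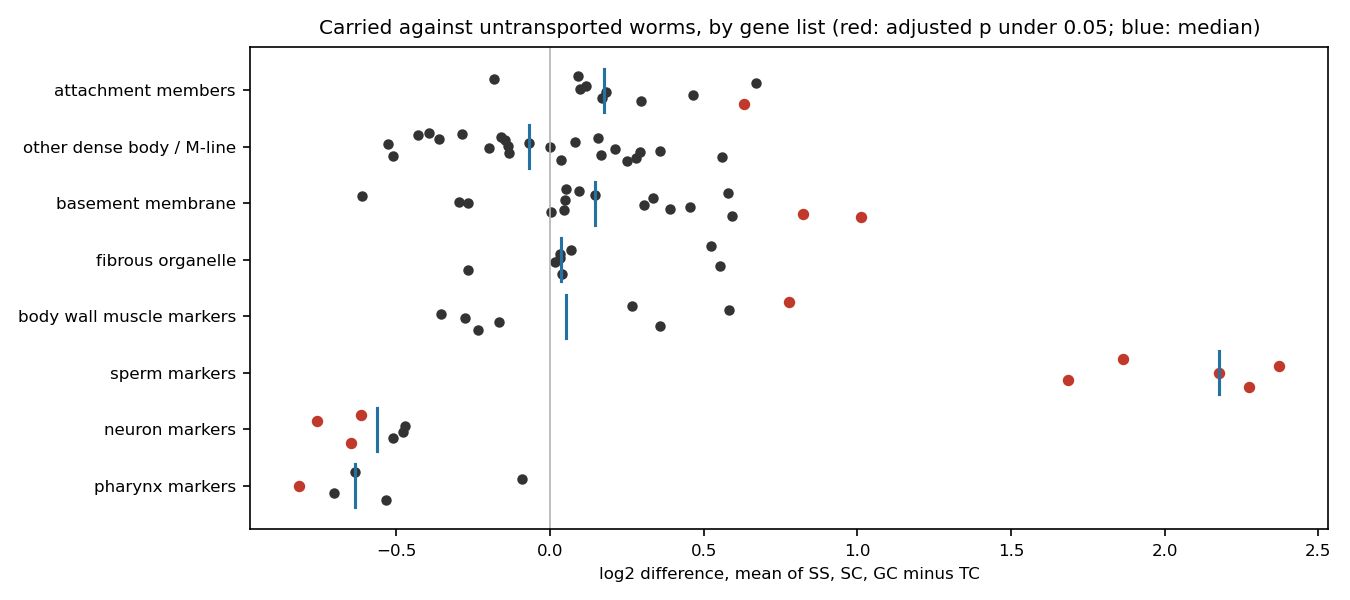
Log2 difference between the mean of the 3 carried conditions and untransported worms (horizontal axis) for each gene of 8 lists, with red for an adjusted p under 0.05 and a blue bar at the median of the list. The 5 sperm markers lie between 1.69 and 2.37, while the attachment genes lie between −0.18 and 0.67 with a median of 0.18.

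Across the 12 arrays the members varied together in part. Of 45 pairs, 38 had a correlation above 0, with a median of 0.43 and a range of −0.48 to 0.85. unc-52 went with pat-4 (0.85) and unc-95 (0.80), and once condition and strain were fitted those correlations were 0.41 and 0.51. The lowest pair was unc-95 with deb-1, at −0.48. These correlations describe 12 arrays that share strains, conditions and array scaling.

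The genes whose values were most like the mean of the 10 members over the 12 arrays were picked from all other genes by that correlation. They were ost-1 (0.95), which codes for the basement membrane protein SPARC, F43E2.6 (0.94), let-2 (0.92), a second type IV collagen chain, ifa-1 (0.91), an intermediate filament protein, and col-94 (0.91), a cuticle collagen. After condition and strain were fitted they were msp-3 (0.99), a major sperm protein, nmy-2 (0.98), a nonmuscle myosin, ZK112.3 (0.98), C06E7.4 (0.97) and tol-1 (0.97), a Toll-like receptor. No gene was on both lists. The fitted residuals keep 6 degrees of freedom, and taking the highest of so many genes gives high correlations by selection. These correlations were not tested.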

How the data were processed

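The authors' deposited files hold 1 linear intensity per transcript feature and array, already normalized with RMA per the submitters' processing notes; its version is not given in the sources used here. Since RMA scales arrays to each other, the values were not read as amounts of total RNA. The deposited distributions were not identical, with mean intensities of 902 to 1160 per array. From the deposited intensity, log2 values were taken with no pseudocount and averaged per gene. Symbols came from the RefSeq table (WBcel235) for 19428 genes and from the array for 590, and 2273 genes had more than 1 feature. No slide or scan batch was given in the sources used here.

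A linear model of condition plus strain was fitted to all 20018 genes on the 12 arrays (limma 3.58.1, R 4.3.3, 6 residual and 7.71 prior degrees of freedom), with Benjamini-Hochberg adjustment of the p-values over all genes. A second fit held the interaction of strain with flown conditions. Strain is the replicate number and pairs the arrays, since the labels give the same strain under each number. The mean correlation of arrays was 0.953 within a condition, 0.938 within a strain and 0.931 for neither.

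The members and the lists were chosen with earlier results of these data known, and the fits per feature were added after seeing the data. Members were always named, from other lists up to 4 genes that passed or otherwise the 2 with the smallest p, and 5 genes most like the members by correlation. Alternatives were no strain term, quantile normalization, median centring, an offset of 50, the brightest feature per gene, leaving out genes under log2 intensity 8, the features of the deposited value table, trended and robust variance, and leaving out each array. The steps were tested on simulated data.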

Additional observations from a re-analysis of the deposited data

How the results depend on the processing

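For carried against untransported worms, 1 member passed with strain as the block. With no replicate block 0 passed, and unc-52 had an adjusted p of 0.0959. The count was 2 with genes under log2 intensity 8 left out and 2 with the features of the value table, where unc-95 passed as well (adjusted p = 0.0351 and 0.0457), and 0 to 2 with single arrays left out. For unc-52 the adjusted p lay between 0.0237 and 0.0492 under the other settings. For any difference among conditions, 0 members passed, and 1 did (unc-52) with an offset of 50, with the brightest feature, with genes under log2 intensity 8 left out and with trended and robust variance (adjusted p = 0.0443, 0.0368, 0.0491 and 0.0410). The share of all genes called under each of these settings is not given here, so these counts cannot be set against a background. The median over members of static flight against the centrifuge, 0.15, was 0.11 with quantile normalization, 0.10 with median centring, 0.10 with the brightest feature, 0.13 without the dim genes, 0.10 with the features of the value table and 0.083 to 0.28 with single arrays left out. The median of static flight against the ground control, 0.21, was 0.155 to 0.34 with single arrays left out, and 0.07 with quantile normalization. The causes of these shifts were not tested. The other counts stayed within 1.5 times, and the other medians moved by less than their SD between strains (between conditions for the mutants). In each comparison other than those of static flight, that SD was larger than the median itself. For carried against untransported worms it was 0.30 against a median of 0.18, so even a shift to 0 would have counted as staying. Single differences of members changed sign in 81 of 1200 values with 1 array left out and in 21 of 750 under other settings, none of them at an unadjusted p under 0.05. No scaling moved the median of all genes by over 0.1. With 3 arrays a condition and standard errors near 0.24, differences between 2 conditions as small as those of most members are not resolved.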

Other observations

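In dys-1 against the wild type, where 0% of all genes were called by limma, the median of the other dense body and M-line genes and that of the attachment genes had opposite signs. Of the 23, 17 lay above 0 with a median of 0.21, with 6 upward and 1 downward at an unadjusted p under 0.05 (7.59% and 7.28% of all genes). The attachment genes had 2 of 10 above 0, a median of −0.22 and none at that level. cpna-1, a copine, had a difference of 0.66 ± 0.20 (adjusted p = 0.204) and scpl-1, a phosphatase of the M-line, one of 0.51 ± 0.18 (adjusted p = 0.230), both higher in dys-1 in 4 of 4 conditions. In the same comparison the 5 pharynx markers lay above 0 with a median of 0.60, and 5 of 6 germline markers lay below 0 with a median of −0.57. The difference between these lists was not tested.

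In static flight against the centrifuge, the 8 measured fibrous organelle genes had a median of 0.39, with 7 above 0, and the 17 basement membrane genes a median of 0.21, with 12 above 0, against 0.00 over all genes. None was called. emb-9 was higher by 0.70 ± 0.24 (adjusted p = 0.242), epi-1 by 0.67 ± 0.24 (adjusted p = 0.267) and mup-4 by 0.58 ± 0.24 (adjusted p = 0.366), each in 3 of 3 strains. The sperm markers had a median of 0.66 there, with 4 of 5 higher at an unadjusted p under 0.05, and their part in these values was not tested.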
